A study of Rattus norvegicus with 12 samples.

Results

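The proteasome is the barrel-shaped protease that degrades ubiquitin-tagged proteins in the cytoplasm and nucleus. Its 20S core particle is built of α and β rings and holds the cutting sites inside, and its 19S regulatory particle recognises tagged proteins, unfolds them and feeds them into the core, the whole assembly being the 26S proteasome. In cells exposed to interferon, and constitutively in many immune cells, the catalytic subunits Psmb5, Psmb6 and Psmb7 are replaced by Psmb8, Psmb9 and Psmb10, which makes the immunoproteasome, known for cutting peptides for display on MHC class I molecules.

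Proteasome genes were taken as every gene of the expression table whose symbol begins with Psma, Psmb, Psmc, Psmd, Psme or Psmf followed by a number, which gave 46 of 13151 genes. Of these, 14 encode the 20S core (Psma1 to Psma7 and Psmb1 to Psmb7), 17 the 19S regulatory particle, 3 the immunoproteasome and 12 fall outside these classes. The 12 are the PA28 and PA200 type activators Psme1 to Psme4, the assembly chaperones Psmd5, Psmd9 and Psmd10, the inhibitor Psmf1, the testis subunit Psma8, the thymus subunit Psmb11, the subunit copy Psma3l and Psmc3ip, a meiotic recombination factor that shares only the letters of its name. After a filter on low values 44 of the 46 were tested, and Psma8 and Psmb11 were not, being below 1 in every rat.

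The data are RNA sequencing of the renal cortex of male rats killed at 32 weeks of age. There were 4 Zucker lean (ZL) rats, the untreated controls, 4 untreated Zucker fatty (ZF) rats, and 4 ZF rats given canagliflozin, an inhibitor of the sodium–glucose cotransporter 2, in the food (ZF-SGLT2i; 10 mg/kg/day, begun at 24 weeks of age and continued for 8 weeks). ZF rats become obese because the leptin receptor is defective (the sample record calls them leptin-deficient), so both ZF groups share the defect, and by the labels the drug sets them apart. By the study's methods ZL rats belonged to an experiment in which ZL and ZF rats alike had earlier kidney biopsies, while the drug experiment, with no ZL rats, had untreated ZF rats of its own with matched food intake. The study does not name the sequenced untreated ZF rats in 1 way throughout, so from which experiment they came is not certain. ZL and ZF-SGLT2i rats thus came from different experiments, and untreated ZF rats may have differed in experiment and biopsies either from ZL or from ZF-SGLT2i rats. Experiment and group cannot be told apart in the comparison of ZF-SGLT2i with ZL, nor in whichever of the other two it touches.

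Levels are CPM, that is read counts scaled to library size, with a further factor per library by the authors (edgeR is named in the submitters' notes, the kind of factor is not given), and between 8824980 and 12210257 reads per rat lay on genes. Fold changes are on the log2(CPM + 1) scale from limma with all 12 rats in the fit, and a gene was called when its p-value, adjusted over the 11633 genes tested, was under 0.05. No transcript lengths were used, so levels are compared between groups and not between genes. The tissue holds tubules, glomeruli, vessels and immune cells, so fewer cells of a type and less RNA per cell cannot be told apart.

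With the deposited scaling, all 31 26S subunit genes had negative log2 fold changes in ZF against ZL rats, with a median of −0.133 in the core and −0.104 in the regulatory particle. Of the 31, 4 were called (12.9%), all lower, which is near or below the share among all genes (18.8% called, 10.6% lower). The 3 immunoproteasome genes had positive fold changes of 0.31 to 0.55, and of these only Psmb8 was called. Between ZF-SGLT2i and ZF rats no proteasome gene was called, beside 3.15% of all genes tested. The 26S median was −0.014, and the 3 immunoproteasome genes were between −0.51 and −0.40. All genes tested had medians of −0.008 and 0.006 in these comparisons.

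The 26S fold changes between ZF and ZL depended on the scaling of the libraries, and the direction of the immunoproteasome median did not. The deposited values summed over all genes to 1007732 to 1058520 in ZL rats, 948262 to 988883 in ZF rats and 980043 to 1010982 in ZF-SGLT2i rats. Scaled instead to the total of reads on genes, an alternative chosen after the data were seen, the median of all genes in ZF against ZL moved from −0.008 to 0.094. The core median was then −0.027 with 12 of 14 genes negative and the regulatory median 0.003 with 8 of 17 negative. Relative to the median of all genes these are −0.121 and −0.091, beside −0.125 and −0.097 with the deposited scaling. None of the 26S genes was called lower under that scaling, and the genes called were Psmb8, Psmb9 and Psme4, all higher. The immunoproteasome median was 0.451. The split of all called genes moved as well, from 953 higher and 1232 lower to 2028 higher and 608 lower. The lower 26S levels given in the following are therefore relative to the bulk of genes in the cortex.

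**Figure D1:**
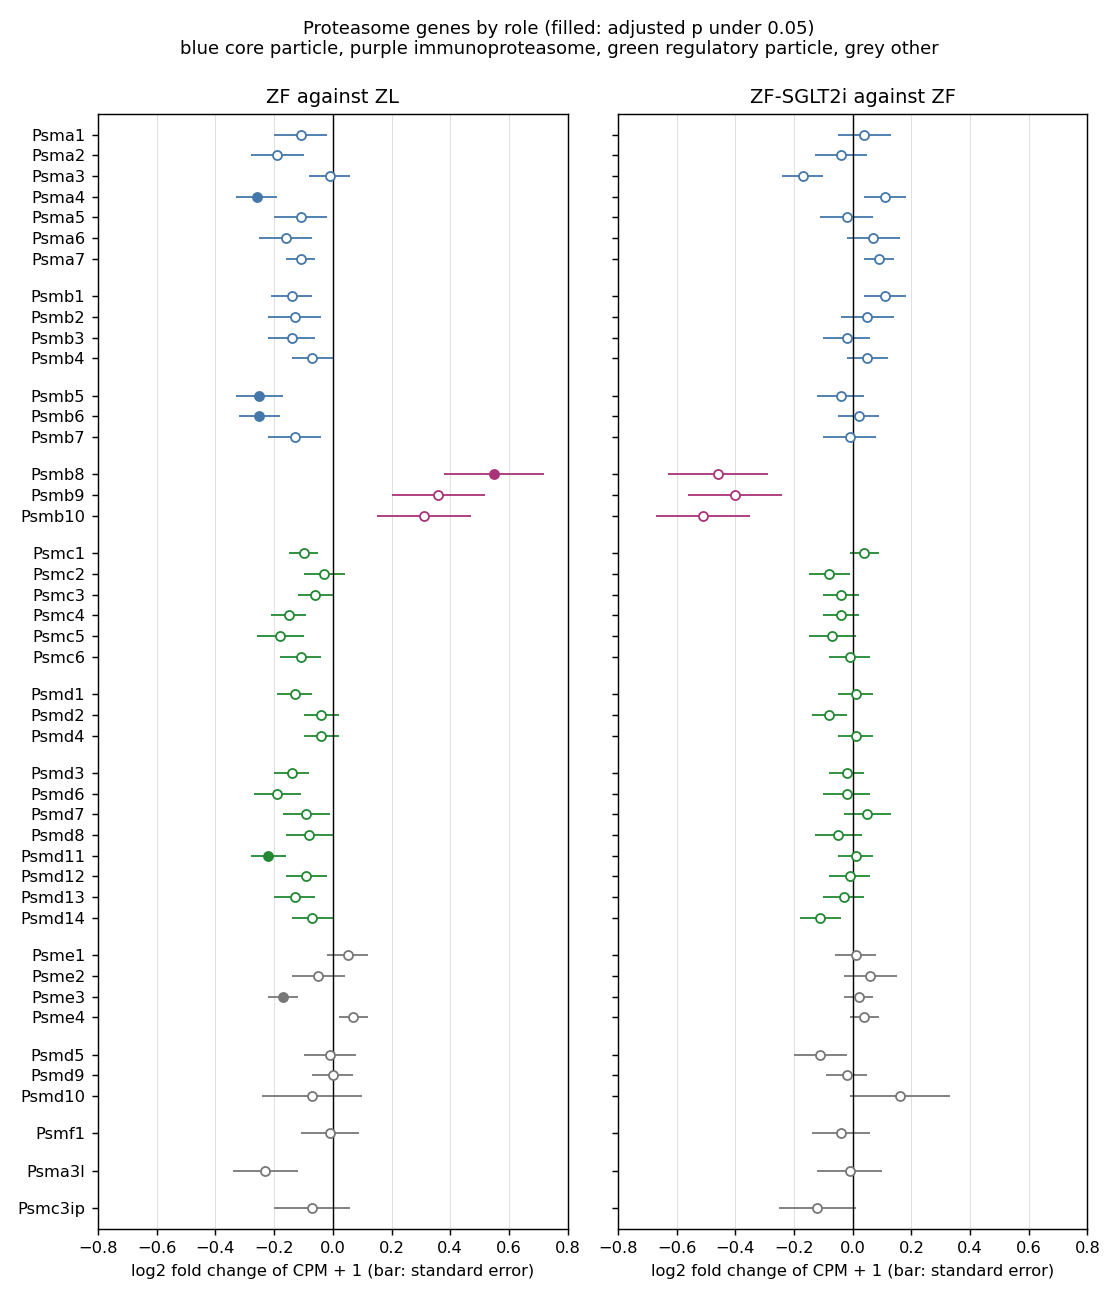
Log2 fold change of CPM + 1 (x axis, no unit) of each of the 44 tested proteasome genes (y axis, grouped by role) for ZF against ZL and for ZF-SGLT2i against ZF, with the standard error as a bar and filled points for genes called. With the deposited scaling the core and regulatory genes lie left of 0 in the first panel and around 0 in the second, while Psmb8, Psmb9 and Psmb10 lie right of 0 in the first and left of 0 in the second.

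In ZF against ZL rats, 6 of the 44 proteasome genes were called (13.6%), fewer than the 18.8% of all genes tested. Of the 6, 5 were lower and 1 higher, beside 10.6% lower and 8.19% higher among all genes. The ranges of ZL and ZF stood apart in 7 of the 44 genes (15.9%, against 19.0% of all genes). The share of called genes among them is therefore no larger than in the table as a whole. By direction, 31 of the 31 26S genes (100%) had a negative fold change with the deposited scaling against 51.6% of all genes tested, 28 of 31 against 47.7% with quantile normalization, and 20 of 31 against 31.3% with scaling to total reads. The count of 6 called genes was 1 without ZL rat 1 or ZF rat 3, 3 without ZL rat 2, 3 or 4 or ZF rat 2, 4 without ZF rat 5, and 7 without ZF rat 4.

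The core α ring forms the gated entrance of the barrel. Psma4, an α ring subunit, was the 26S gene with the largest fold change in ZF against ZL. It was 64.4, 56.7, 67.8 and 61.0 CPM in ZL rats 1 to 4, 50.3, 49.0, 54.0 and 54.4 in ZF rats 2 to 5, and 54.6, 56.2, 60.0 and 54.2 in ZF-SGLT2i rats 2, 3, 4 and 6. Every ZF rat was below every ZL rat, and of the ZF-SGLT2i rats only rat 4, at 60.0, reached into the ZL range. The log2 fold change of Psma4 in ZF was −0.26 (standard error 0.07, adjusted p = 0.015; two-sided exact permutation p = 0.0286, the smallest that 4 rats against 4 allow). Scaling to total reads ended the call (−0.15, adjusted p = 0.14), and leaving out any single rat did not (highest adjusted p = 0.05, just under the threshold, without ZF rat 3). Against ZF, Psma4 in ZF-SGLT2i rats was 0.11 higher on the log2 scale, with a 95% interval of −0.03 to 0.25. The other α ring genes were lower in ZF without being called, from −0.01 for Psma3 to −0.19 for Psma2, with Psma1, Psma5, Psma6 and Psma7 between −0.11 and −0.16.

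The β ring holds the active sites, each constitutive catalytic subunit cutting after a different kind of residue. Psmb5 carries the chymotrypsin-like activity, which cuts after hydrophobic residues. It was 82.7, 80.2, 77.3 and 78.3 CPM in ZL rats, 65.9, 66.3, 76.7 and 58.8 in ZF rats and 64.4, 62.4, 74.1 and 58.5 in ZF-SGLT2i rats. The ZF and ZF-SGLT2i rats were all below the lowest ZL rat, with rat 4 of each group just under it. The log2 fold change of Psmb5 in ZF against ZL was −0.25 (standard error 0.08, adjusted p = 0.046; two-sided exact permutation p = 0.0286). This call stood close to the threshold, and only 7 of 21 alternatives kept it (adjusted p from 0.012 to 0.22). It was lost with the other scalings, with only the ZL and ZF rats in the fit, without any single ZL rat, and without ZF rat 2, 3 or 5 or ZF-SGLT2i rat 2 or 3.

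Psmb6 carries the caspase-like activity, which cuts after acidic residues. It was 56.5, 51.7, 52.6 and 55.8 CPM in ZL rats, 46.4, 45.1, 46.6 and 43.5 in ZF rats and 47.3, 46.7, 50.7 and 39.6 in ZF-SGLT2i rats. ZL rats did not overlap with either ZF group. The log2 fold change of Psmb6 in ZF against ZL was −0.25 (standard error 0.07, adjusted p = 0.027; two-sided exact permutation p = 0.0286), and the call was lost without ZL rat 1 or 4 or ZF rat 2, 3 or 5, with quantile normalization and with scaling to total reads (adjusted p from 0.01 to 0.17 over the 21 alternatives).

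Psmb7 carries the trypsin-like activity, which cuts after basic residues. It was 87.8, 78.6, 72.7 and 87.9 CPM in ZL rats, 76.8, 70.3, 82.1 and 69.1 in ZF rats and 78.9, 75.7, 80.4 and 62.8 in ZF-SGLT2i rats. The 3 groups overlapped. Its log2 fold change in ZF against ZL was −0.13 (adjusted p = 0.34), with a 95% interval of −0.32 to 0.06. The non-catalytic β subunits, which brace the ring, had fold changes of −0.14 (Psmb1), −0.13 (Psmb2), −0.14 (Psmb3) and −0.07 (Psmb4), none of them called, and the ZL and ZF values did not overlap for Psmb1. The 14 core genes summed to 909 ± 28.0, 819 ± 47.6 and 838 ± 67.0 CPM (SD, n = 4) in ZL, ZF and ZF-SGLT2i rats, and ZF rat 4 at 887 overlapped with ZL rat 2 at 883.

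The regulatory particle consists of a base, whose ATPases Psmc1 to Psmc6 unfold the substrate, and a lid. The lid subunit Psmd11, which ties the lid to the core, was the only regulatory gene called in ZF against ZL. It was 103, 93.2, 104 and 95.0 CPM in ZL rats, 83.7, 79.0, 88.6 and 86.7 in ZF rats and 84.5, 86.3, 88.3 and 81.7 in ZF-SGLT2i rats. Both ZF groups lay wholly below the ZL rats and overlapped with each other. The log2 fold change was −0.22 in ZF against ZL (standard error 0.06, adjusted p = 0.016; two-sided exact permutation p = 0.0286), and the call was lost without ZL rat 1 or ZF rat 3 and with scaling to total reads (highest adjusted p = 0.21).

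The log2 fold changes of the 6 ATPases in ZF against ZL ranged from −0.03 for Psmc2 to −0.18 for Psmc5, with Psmc1 at −0.10, Psmc3 at −0.06, Psmc4 at −0.15 and Psmc6 at −0.11. Of the other base subunits, the scaffolds Psmd1 and Psmd2 were at −0.13 and −0.04, and the ubiquitin receptor Psmd4 was at −0.04. In the lid, Psmd3, Psmd6, Psmd7, Psmd8, Psmd12, Psmd13 and the deubiquitinase Psmd14 lay between −0.07 and −0.19. None of these passed the test, and the median SD within a group was 0.086 on the log2 scale over the 17 regulatory genes. The 17 genes summed to 1405.8 ± 41.4, 1307.5 ± 65.5 and 1280.3 ± 51.3 CPM (SD, n = 4) in ZL, ZF and ZF-SGLT2i rats, and ZF rat 4 at 1399.1 was within the ZL range.

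Within the ZF groups the same rats were high or low across most 26S genes. ZF rat 4 had the highest level of its group for 23 of the 31 genes and ZF rat 5 the lowest for 17. Among ZF-SGLT2i rats, rat 4 was the highest for 25 genes, including all 14 core genes, and rat 6 the lowest for 25. Read numbers followed this order in part, with 11191377 in ZF rat 4 and 8824980 in ZF rat 5, the highest and lowest of ZF, and with 8914666 in ZF-SGLT2i rat 6, the lowest of its group, but 9982538 in ZF-SGLT2i rat 4, below rats 2 and 3. The part of read number in these levels was not tested.

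**Figure D2:**
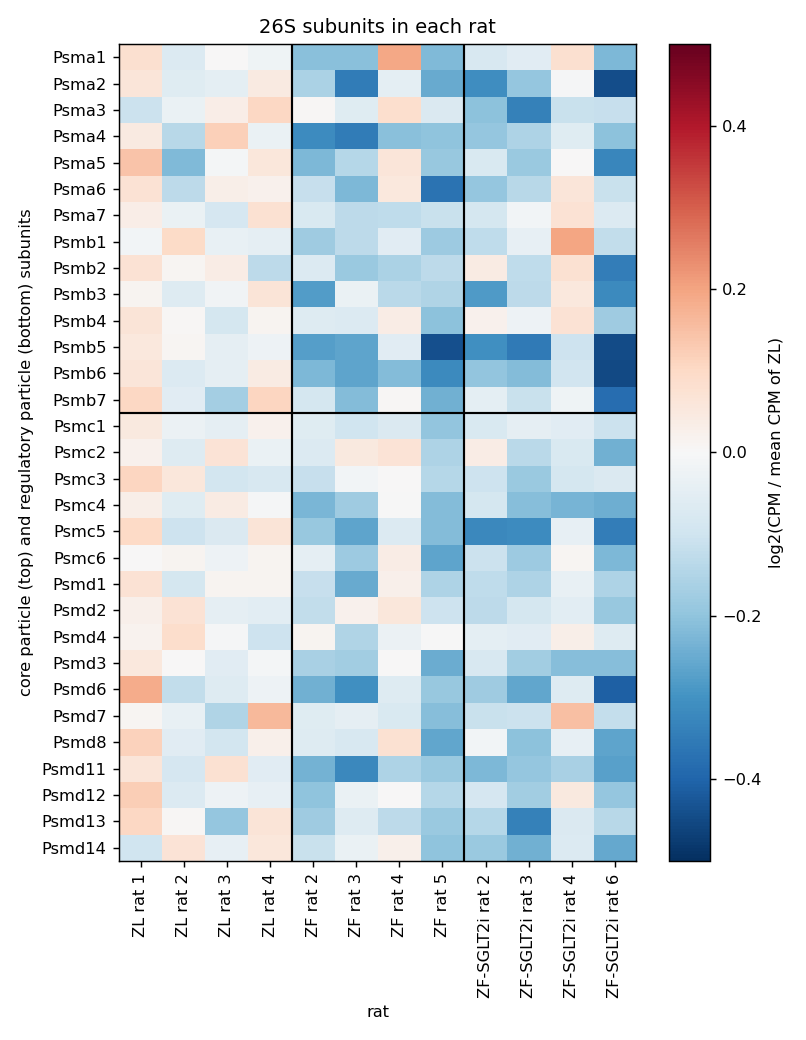
Level of each of the 31 26S subunit genes (rows, core above and regulatory below the line) in each of the 12 rats (columns), as log2 of CPM over the mean CPM of the 4 ZL rats (colour, blue lower, red higher). Most cells of the ZF and ZF-SGLT2i rats are blue, ZF rat 4 and ZF-SGLT2i rat 4 stand closer to the ZL rats, and ZF rat 5 and ZF-SGLT2i rat 6 hold most of the lowest values of their groups.

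Markers of the proximal tubule, the most abundant epithelium of the cortex, also had a lower mean sum in both ZF groups than in ZL rats. Their 10 genes, all detected and led by Lrp2, the megalin receptor, summed to 25901.7, 25272.3, 26805.9 and 22623.4 CPM in ZL rats and to 19492.5, 19911.8, 23782.5 and 17884.3 in ZF rats. In ZF-SGLT2i rats they summed to 19508.6, 17430.0, 18423.6 and 14969.4. Lrp2 alone made up a large part of each sum, with means of 10736.5, 7835.3 and 6440.1 CPM in ZL, ZF and ZF-SGLT2i rats. It was not called in ZF against ZL (limma adjusted p = 0.073). Among ZF rats the sum of the 10 markers was highest in rat 4 and lowest in rat 5, as for most 26S genes. Among ZF-SGLT2i rats it was lowest in rat 6, also as for most 26S genes. It was highest in ZF-SGLT2i rat 2 and not in rat 4, which was highest for 25 of the 31. In ZF against ZL, 2 of the 10 markers were called lower and 1 higher, beside 10.6% lower and 8.19% higher among all genes tested. Their median was −0.188, with 6 of the 10 negative and 4 positive. With scaling to total reads none was called lower and 1 higher, with a median of −0.08. In ZF-SGLT2i against ZF, 1 of the 10 was called lower (beside 1.75% of all genes), with a median of −0.189. The 26S median in that comparison was −0.014. The part of these cells in the 26S result was not tested.

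The immunoproteasome genes rest on few reads, 53 to 207 per rat for Psmb8, Psmb9 and Psmb10. Psmb8 and Psmb9 lie beside the peptide transporter genes Tap1 and Tap2 in the MHC on chromosome 20, in the order Tap2, Psmb8, Tap1, Psmb9, and Psmb10 lies on chromosome 19. The stretches around their starts are shown because Psmb8, Psmb9 and Psmb10 all had positive fold changes in ZF against ZL and negative ones in ZF-SGLT2i against ZF, and those of Psmb5 and Psmb6 because these are the replaced subunits that were called. Each runs from 90 bases before to 10 bases after the RefSeq start on the gene's strand in GRCr8, at chr20:4657022-4657121 (minus) for Psmb8, chr20:4668910-4669009 (plus) for Psmb9, chr19:50743283-50743382 (minus) for Psmb10, chr15:32047370-32047469 (minus) for Psmb5 and chr10:55737798-55737897 (plus) for Psmb6. Capitals mark matches to the 3 patterns described after the sequences.
Psmb8: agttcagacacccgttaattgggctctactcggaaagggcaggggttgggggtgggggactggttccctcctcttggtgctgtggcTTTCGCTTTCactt
Psmb9: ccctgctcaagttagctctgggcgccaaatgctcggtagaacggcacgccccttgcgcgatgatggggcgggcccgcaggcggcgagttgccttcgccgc
Psmb10: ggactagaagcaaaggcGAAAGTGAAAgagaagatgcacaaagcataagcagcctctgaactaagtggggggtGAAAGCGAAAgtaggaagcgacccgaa
Psmb5: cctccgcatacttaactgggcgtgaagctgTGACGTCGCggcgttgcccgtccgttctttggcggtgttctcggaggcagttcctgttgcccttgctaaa
Psmb6: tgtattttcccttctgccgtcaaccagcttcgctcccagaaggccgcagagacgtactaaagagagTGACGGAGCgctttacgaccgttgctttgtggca

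The patterns were searched on both strands of RefSeq promoters of 300 bases, which were found for 40 of the 46 genes, and matches of different patterns could overlap. The interferon-response pattern, GAAA followed after 2 bases of any kind by GAAA, the kind of site that interferon regulatory factors bind, was in 3.77% of all 27457 promoters. It was in 6 of the 40, namely Psmb8, Psmb10, Psme2, Psma4, Psmb3 and Psmd7, and Psmb10 held it at 2 places. The STAT-type pattern TTCNNNGAA was in 8.68% of all promoters and in 4 of the 40, one of them Psmb8 at a place outside the stretch shown. The antioxidant-response pattern TGACNNNGC was in 12.2% of all promoters and in 8 of the 40, among them the core genes Psma3, Psmb2, Psmb5 and Psmb6. Psmb9 held none of the 3 patterns in this window.

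Psmb8 takes the place of Psmb5 in the immunoproteasome. It was 11.7, 10.4, 9.07 and 10.8 CPM in ZL rats 1 to 4, 16.9, 20.7, 16.9 and 10.3 in ZF rats 2 to 5, and 11.8, 11.4, 9.16 and 12.7 in ZF-SGLT2i rats 2, 3, 4 and 6. ZF rats 2, 3 and 4 lay above every other rat, whereas ZF rat 5 lay within the ZL range, so the groups overlapped. The log2 fold change in ZF against ZL was 0.55 (standard error 0.17, adjusted p = 0.036; two-sided exact permutation p = 0.114). Without ZF rat 5 it was 0.74 (adjusted p = 0.0031), while the call was lost without any single ZL rat or without ZF rat 2, 3 or 4 (0.42 and adjusted p = 0.11 without ZF rat 3), and with only the ZL and ZF rats in the fit (adjusted p = 0.067). Over 21 alternatives the adjusted p ranged from 0.0031 to 0.11, and 13 kept the call, scaling to total reads among them (0.65, adjusted p = 0.014).

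In ZF-SGLT2i against ZF rats, Psmb8 did not pass the test, at −0.46 (adjusted p = 0.17; standard error 0.17). Without ZF rat 5 it was −0.65 (adjusted p = 0.011), and without ZF rat 3 it was −0.33 (adjusted p = 0.38). The ZF-SGLT2i rats were near the ZL rats, with a log2 difference of 0.09 and a 95% interval of −0.27 to 0.45.

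Psmb9 takes the place of Psmb6. It was 7.36, 5.89, 6.69 and 6.79 CPM in ZL rats, 7.96, 11.4, 10.2 and 6.45 in ZF rats and 5.05, 7.07, 6.34 and 7.58 in ZF-SGLT2i rats. Again ZF rats 2, 3 and 4 lay above all rats of the other groups and ZF rat 5 among them. Its log2 fold change was 0.36 in ZF against ZL (adjusted p = 0.13), and the gene was called without ZF rat 5 (0.49, adjusted p = 0.042) and with scaling to total reads, while without ZF rat 3 it was at 0.24 (adjusted p = 0.34). It was −0.40 in ZF-SGLT2i against ZF (adjusted p = 0.20), and −0.53 without ZF rat 5 (adjusted p = 0.056) or −0.28 without ZF rat 3 (adjusted p = 0.43).

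Psmb10 takes the place of Psmb7. It was 9.06, 8.67, 7.60 and 10.0 CPM in ZL rats, 11.3, 13.1, 12.2 and 8.42 in ZF rats and 9.33, 5.75, 6.64 and 8.81 in ZF-SGLT2i rats. The same 3 ZF rats were the highest of all 12. Its log2 fold change was 0.31 in ZF against ZL (adjusted p = 0.18) and −0.51 in ZF-SGLT2i against ZF (adjusted p = 0.096, the lowest of the proteasome genes in that comparison, 0.029 at −0.63 without ZF rat 5, and 0.25 at −0.40 without ZF-SGLT2i rat 3).

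The level of each inducible subunit was also set over that of the subunit it replaces in the same rat. A ratio within a rat does not depend on the scaling. Psmb8 over Psmb5 ranged from 0.117 to 0.141 in ZL rats and from 0.175 to 0.313 in ZF rats, and from 0.124 to 0.217 with the drug. Psmb9 over Psmb6 ranged from 0.114 to 0.130, 0.148 to 0.253 and 0.107 to 0.192 in the same order, and Psmb10 over Psmb7 from 0.103 to 0.114, 0.122 to 0.187 and 0.076 to 0.140. For all 3 ratios every ZF rat, rat 5 included, was above every ZL rat, and the ZF-SGLT2i rats overlapped with both. These ratios are given as a description without a test, and they show unequal change of the pair, not which member changed.

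**Figure D3:**
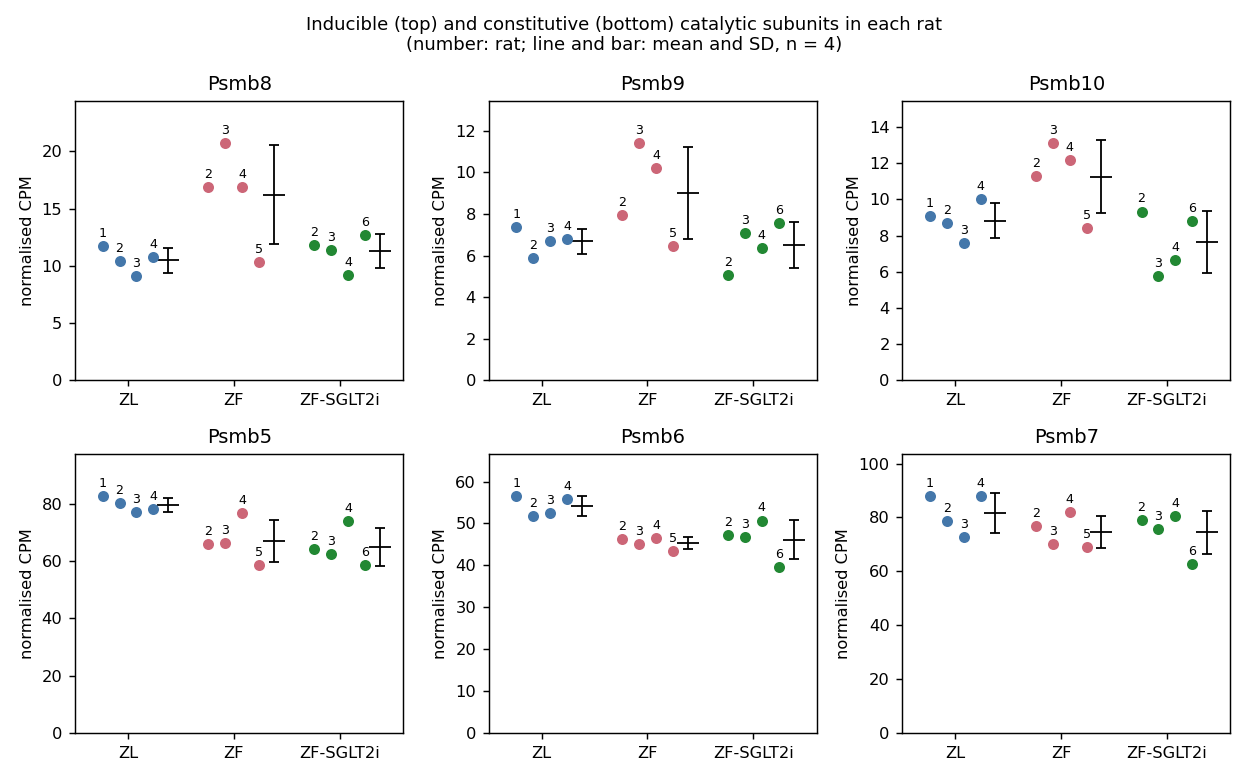
Normalised CPM (y axis, from 0) of the inducible subunits Psmb8, Psmb9 and Psmb10 and of the constitutive subunits Psmb5, Psmb6 and Psmb7 in each rat (points, labelled with the rat number) of the 3 groups (x axis), with the mean and SD of 4 rats beside them. ZF rats 2, 3 and 4 are the highest of all rats in the upper panels, ZF rat 5 lies with the other groups, and in the lower panels the ZL rats are above both ZF groups for Psmb5 and Psmb6 and overlap with them for Psmb7.

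Among the activators, Psme1 and Psme2 form an interferon-inducible cap that favours release of peptides from the core. Unlike Psmb8 they were not called, with log2 fold changes in ZF against ZL of 0.05 for Psme1 (95% interval −0.10 to 0.20) and −0.05 for Psme2 (−0.24 to 0.13). Psme3, the nuclear activator of the same family, was called lower in ZF. It was 112, 115, 115 and 106 CPM in ZL rats, 103, 99.9, 96.7 and 99.8 in ZF rats and 101, 101, 96.9 and 105 in ZF-SGLT2i rats. Every ZF and every ZF-SGLT2i rat was below the lowest ZL rat. The log2 fold change in ZF was −0.17 (standard error 0.05, adjusted p = 0.032; two-sided exact permutation p = 0.0286), and the call was lost without ZL rat 1, 2 or 3 or ZF rat 3, 4 or 5, with quantile normalization, with only the ZL and ZF rats in the fit and with scaling to total reads (adjusted p from 0.023 to 0.47 over 21 alternatives). Psme4, which caps the core without ATP, was 266 ± 10.1, 280 ± 14.8 and 288 ± 9.70 CPM (SD, n = 4) in ZL, ZF and ZF-SGLT2i rats, at 0.07 in ZF against ZL (adjusted p = 0.38), and was called higher with quantile normalization and with scaling to total reads.

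The remaining genes showed no called difference. The base assembly chaperones Psmd5, Psmd9 and Psmd10 were between −0.07 and −0.00 in ZF against ZL, and Psmf1, named as an inhibitor of the core, was at −0.01. Psma3l, whose reads may be shared with Psma3, was 38.6 ± 3.23 CPM (SD, n = 4) in ZL and 32.7 ± 3.84 in ZF rats, which on the log2 scale is −0.23 (adjusted p = 0.14). Because the counting could have split reads between this pair, their values are uncertain, and their summed level was 72.1 ± 1.92, 65.9 ± 5.49 and 61.8 ± 5.27 CPM in ZL, ZF and ZF-SGLT2i rats. Psmc3ip, the gene that matched by name only, was at −0.07.

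Between ZF-SGLT2i and ZF rats, which asks whether the drug altered these genes in obese rats and may also hold the difference of experiment and biopsies, 0 of the 44 proteasome genes were called by limma, where 3.15% of all genes tested were called, 1.39% higher and 1.75% lower. At an unadjusted p under 0.05 there were 4 of the 44, a smaller share than the 1996 of 11633 among all genes, namely Psmb8, Psmb9, Psmb10 and Psma3, each with a negative fold change. Without ZF rat 5, 2 genes were called, Psmb8 and Psmb10. The ranges of ZF and ZF-SGLT2i stood apart in 1 gene, Psma3, against 11.2% of all genes. Psma3, an α ring subunit, was 33.5, 32.0, 35.4 and 31.8 CPM in ZF rats and 29.0, 26.4, 30.9 and 30.8 in ZF-SGLT2i rats, with 31.0, 32.6, 34.2 and 35.9 CPM in ZL rats. All ZF-SGLT2i rats were below the other 8, and Psma3 was at −0.17 on the log2 scale (adjusted p = 0.21; two-sided exact permutation p = 0.0286). Over the 26S genes 13 fold changes were positive and 18 negative (6 and 25 with scaling to total reads), between −0.17 and 0.11, and the widest 95% intervals reached −0.33 and 0.26. The count of negative ones rested on single rats, at 8 without ZF rat 4, 10 without ZF-SGLT2i rat 6 and 25 without ZF-SGLT2i rat 4. Differences of the size seen between ZF and ZL thus lie within some of these intervals.

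In ZF-SGLT2i against ZL rats 6 of the 44 genes were called, all lower in ZF-SGLT2i, beside 27.4% of all genes tested (12.4% higher, 15.0% lower). By role these were 2 catalytic core subunits, 2 base ATPases, 1 lid subunit and 1 activator. Among the called genes the largest log2 fold changes were −0.30 for Psmb5 (adjusted p = 0.016), −0.25 for Psmc5 (adjusted p = 0.028), −0.23 for Psmb6 (adjusted p = 0.027), −0.21 for Psmd11 (adjusted p = 0.015) and −0.19 for Psmc4 (adjusted p = 0.033). All 31 26S genes were negative with the deposited scaling, 28 with quantile normalization and 26 with scaling to total reads, and the ranges stood apart in 9 of the 44 genes against 28.0% of all genes. The count of called genes was 1 without ZL rat 1, 3 without ZL rat 4, 2 without ZF-SGLT2i rat 3 or 6, and 9 without ZF-SGLT2i rat 4. With scaling to total reads it was 2, Psmb5 lower and Psme4 higher.

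Other proteasome parts and assembly factors are the genes that complete or build the complex. Of the 10 in the table, 2 were called in ZF against ZL, both lower, with a median of −0.123 (none called, median −0.024, with scaling to total reads). Of all genes tested, 18.8% were called. Psmg2, a chaperone of α ring assembly, was 11.1 ± 0.433, 8.27 ± 0.976 and 8.69 ± 1.05 CPM (SD, n = 4) in ZL, ZF and ZF-SGLT2i rats, and at −0.39 in ZF against ZL (adjusted p = 0.020). Shfm1, a small lid subunit, was at −0.34 (adjusted p = 0.044). None of the 10 was called in ZF-SGLT2i against ZF, beside 3.15% of all genes tested, and the median was 0.060.

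Genes for ubiquitin and for the delivery of tagged proteins to the proteasome had a median of −0.117 over the 15 in the table in ZF against ZL, and of −0.009 with scaling to total reads. Ubqln1, a shuttle factor that carries tagged proteins to the proteasome, was 141 ± 3.39, 121 ± 2.08 and 131 ± 9.22 CPM (SD, n = 4) in ZL, ZF and ZF-SGLT2i rats. Its ZF rats, at 118 to 123, were all below the ZL rats, at 137 to 145, and the gene was called lower in ZF at −0.23 on the log2 scale (adjusted p = 0.012), though not with scaling to total reads. With that scaling Nploc4, a cofactor of substrate unfolding, was called higher. None of the 15 was called in ZF-SGLT2i against ZF, beside 3.15% of all genes tested.

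Of 7 listed genes that govern transcription of the proteasome in response to its inhibition or to oxidative stress, 6 were in the table. The absent gene was Nfe2l1, so nothing can be said of its level. None of the 6 was called in ZF against ZL or in ZF-SGLT2i against ZF, beside 18.8% and 3.15% of all genes tested. The lowest adjusted p of these in ZF against ZL was 0.073, for Ngly1 at −0.17, an enzyme that activates such a factor, and Nfe2l2, the antioxidant-response factor, was at 0.14 (adjusted p = 0.11). With scaling to total reads, Nfe2l2 and Keap1, which holds Nfe2l2 in check, were called higher in ZF against ZL.

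The genes of class I antigen presentation, which handle the peptides that the immunoproteasome makes, went both ways in ZF against ZL. Of 12 in the table, 3 were called higher and 2 lower (41.7% in all, beside 18.8% of all genes), with a median of 0.175 (6 higher and none lower, median 0.281, with scaling to total reads). Tap1, a chain of the peptide transporter and the neighbour of Psmb8 and Psmb9, was 13.2, 15.6, 9.87 and 10.9 CPM in ZL rats, 15.7, 25.8, 18.0 and 15.6 in ZF rats and 11.6, 15.8, 13.8 and 14.4 in ZF-SGLT2i rats. The ZL and ZF ranges came close at 15.6 without overlapping, and the log2 fold change of Tap1 in ZF was 0.55 (adjusted p = 0.031; standard error 0.16). RT1-S3, a class I heavy chain gene, was at 0.60 (adjusted p = 0.028), and the reads of such genes can be shared within their family. Tapbpl, a peptide editor related to tapasin, was at 0.46 (adjusted p = 0.023). The chaperones of the endoplasmic reticulum that fold class I molecules along with many other proteins were lower, with Canx at −0.28 (adjusted p = 0.017) and Calr at −0.25 (adjusted p = 0.024). In ZF-SGLT2i against ZF all 12 were negative, with a median of −0.148. Calr was called (−0.31, adjusted p = 0.026), 1 of the 12 (8.33%) beside 3.15% of all genes.

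The interferon response list holds genes switched on by interferons together with their receptors and signal carriers. Of its 27 genes, 26 were positive in ZF against ZL and 7 were called (25.9%, beside 18.8% of all genes), all higher, with a median of 0.337. With scaling to total reads 15 were called higher, as were 2028 of all genes. The largest of the 7 were the antiviral genes Oas1a (0.95, adjusted p = 0.027) and Ifit3 (0.77, adjusted p = 0.017), the chemokine Cxcl10 (0.77, adjusted p = 0.041) and Ifit2 (0.52, adjusted p = 0.041). In ZF-SGLT2i against ZF 21 of the 27 were negative, with a median of −0.112, and none was called, beside 3.15% of all genes. Summed over the list the level was 675, 647, 638 and 676 CPM in ZL rats, 719, 888, 789 and 707 in ZF rats and 680, 731, 729 and 758 in ZF-SGLT2i rats. Within ZF, rat 3 was the highest and rat 5 the lowest, which was also the order of the extremes in Psmb8, Psmb9 and Psmb10.

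Immune cells carry immunoproteasome genes constitutively, so their markers are given beside these values. The 11 macrophage markers, led by Lyz2, a lysozyme gene, summed to 247, 244, 176 and 236 CPM in ZL rats, 353, 340, 365 and 234 in ZF rats and 419, 259, 211 and 252 in ZF-SGLT2i rats. ZF rat 5 was the low ZF rat here too, while ZF-SGLT2i rat 2, the highest of all, had a summed immunoproteasome level of 26.2 CPM, within the ZL range of 23.4 to 28.1. Of the 10 macrophage markers tested, 1 was called higher in ZF against ZL (10.0%, beside 8.19% of all genes), with a median of 0.361. None was called in ZF-SGLT2i against ZF (median −0.161), beside 3.15% of all genes.

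The 7 lymphocyte markers in the table summed to 39.2 ± 5.33, 51.9 ± 9.58 and 37.7 ± 11.3 CPM (SD, n = 4) in ZL, ZF and ZF-SGLT2i rats and were led by Ptprc, which all leukocytes carry. The T cell receptor genes Cd3d, Cd3e and Cd3g and the killer cell gene Nkg7 were below 1 CPM in every rat. Cd3e, at 2 to 9 reads per rat, was 0.702 to 0.984 CPM in ZF rats. It was 0.227 to 0.538 in ZL and 0.201 to 0.571 in ZF-SGLT2i rats, while the ZF ranges of Cd3d, Cd3g and Nkg7 overlapped with both other groups. None of the 3 lymphocyte markers tested was called, with a median of 0.385 between ZF and ZL rats and of −0.555 between ZF-SGLT2i and ZF rats. Ptprc was at 0.38 (adjusted p = 0.11) and −0.60 (adjusted p = 0.061) in these comparisons, and with scaling to total reads it was called higher and then lower. The 8 fibroblast and mural markers, led by Pdgfra, summed to 606 ± 103, 789 ± 167 and 540 ± 16.2 CPM (SD, n = 4) in ZL, ZF and ZF-SGLT2i rats, and ZF rat 5 was again the lowest of its group at 602. Of the 8, 2 were called higher in ZF than in ZL rats (median 0.41), which is 25.0% beside 8.19% of all genes tested. In ZF-SGLT2i against ZF 3 were called lower (median −0.612), which is 37.5% beside 1.75% of all genes. With scaling to total reads these counts were 4 and 4. The part of these cells in the immunoproteasome result was not tested.

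**Figure D4:**
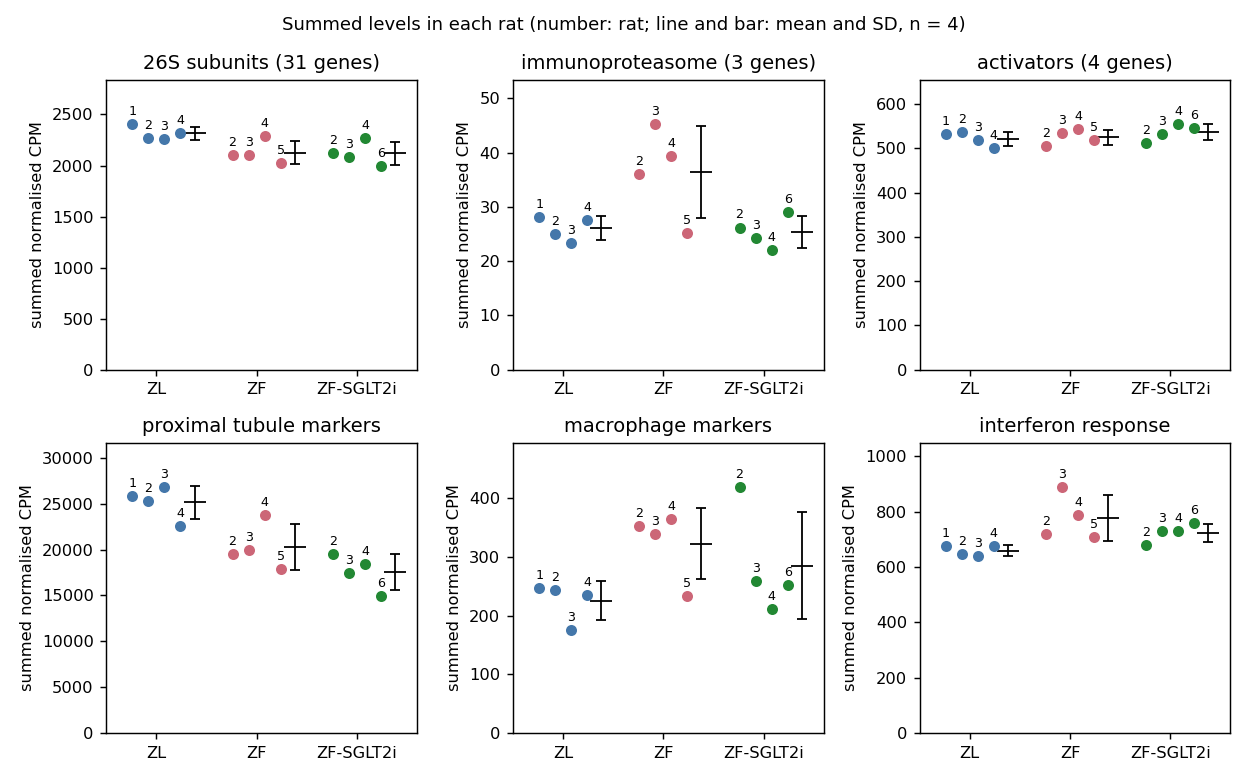
Summed normalised CPM (y axis, from 0) of 6 gene lists in each rat (points, labelled with the rat number) of the 3 groups (x axis), with the mean and SD of 4 rats beside them. With the deposited scaling the 26S and proximal tubule means are highest in ZL, and in the immunoproteasome and macrophage panels ZF rat 5 lies below the other ZF rats. The activator sums are alike in the 3 groups, although Psme3 was called lower in ZF than in ZL and the other activators were not called.

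The injured tubule markers had a median of 0.870 in ZF against ZL and of −0.354 in ZF-SGLT2i against ZF. Of the 8, 6 were called higher in the first comparison (75.0%, beside 8.19% of all genes tested). In the second, 1 of these markers was called lower (12.5%, beside 1.75% of all genes). Their sum, led by Spp1, osteopontin, was 559, 515, 463 and 557 CPM in ZL rats, 2096.3, 850, 1614.1 and 724 in ZF rats and 1316.4, 1280.5, 959 and 582 in ZF-SGLT2i rats. ZF rat 3, the highest for all 3 immunoproteasome genes, was the third of its group in this sum, and ZF-SGLT2i rat 6, the lowest for 25 of the 26S genes, was the lowest of its group. Podocyte, endothelial and collecting duct markers had medians of 0.332, 0.307 and 0.289 in ZF against ZL and of −0.019, −0.035 and 0.476 in ZF-SGLT2i against ZF, and thick limb and distal tubule markers of −0.025 and 0.111. Hbb, the blood gene that could be tested, was at 1.27 in ZF against ZL without being called.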

How the data were processed

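Renal cortex RNA of 12 rats was sequenced from directional libraries depleted of ribosomal RNA. The submitters' notes name Trimmomatic 0.38, RSEM 1.3.0, Bowtie2, edgeR and the build rn6, without roles. The authors deposited a table of signal values, which are CPM times a further factor per library, of a kind not given in the sources used here: in every rat, 100% of the values were whole multiples (tolerance 0.001) of the smallest one. No column belonged to another sample.

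Genes that reached a value of 1 in 4 or more rats were tested with limma 3.58.1 (R 4.3.3, eBayes with trend) on log2(value + 1), two-sided, with Benjamini-Hochberg adjustment. Single genes were also compared by a two-sided exact permutation test, which has 70 possible assignments. Adding 1 makes the fold changes of low genes smaller. Averaged over genes, each pair of rats in a group differed by more than counting noise (chi-square per gene 5.43 to 50.1). This average does not give the spread of genes with few reads. The limma p-values set differences between groups against a spread between rats that is moderated across genes.

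The members and lists were chosen with earlier results of these data known. Values in every rat are given for the catalytic subunits, the inducible subunits and the called genes of largest fold change, in ZF-SGLT2i against ZF for the genes of lowest p. Of each related list, at most 4 called genes per comparison are named, and Ngly1, Nfe2l2, Keap1, Nploc4, Cd3d, Cd3e, Cd3g and Nkg7 were named after their values were seen. Results of some genes of the ubiquitin list are not reported here. Promoters and neighbours are from RefSeq on GRCr8, where 45 of 46 symbols were found. The alternatives are given in the closing section.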

Additional observations from a re-analysis of the deposited data

Results flagged for a closer look

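In 5 of the 132 groups of 4 rats examined over the tested proteasome genes, 1 rat at the top or bottom of its group was widely separated from the other 3, where chance gives about 6.6 such groups. Psma1 was 75.2 CPM in ZF rat 4 against 56.5 to 57.0 in the other ZF rats. In ZF-SGLT2i rat 4, Psmc5 was 57.2 against 46.3 to 47.4, Psmd7 was 55.0 against 45.7 to 46.0 and Psmd4 was 47.8 against 44.7 to 45.2. Psmd9 was 16.1 in ZF-SGLT2i rat 2 against 17.7 to 17.9. Apart from Psmd9, these are high values in the rats that were the highest of their group for most 26S genes.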

How the results depend on the processing

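The immunoproteasome median kept its direction in ZF against ZL under the 20 alternatives that tested all 3 genes (0.242 to 0.530), and a mean of at least 10 left Psmb8 alone at 0.548. The core median kept its direction under 21 alternatives (−0.175 to −0.027), while the regulatory median ranged from −0.132 to 0.003, its only positive value being with scaling to total reads on genes. That scaling, chosen after the data were seen, called 3, 0 and 2 proteasome genes, against 6, 0 and 6, when ZF rats were set against ZL, drug-treated ZF rats against ZF, and drug-treated ZF rats against ZL. In the same order, with single rats left out, the proteasome genes called ranged from 1 to 7, 0 to 2 and 1 to 9, and all genes called from 1389 to 2453, 176 to 570 and 2241 to 3302. Array quality weights called 11, 2 and 12 proteasome genes, and 689 genes of all in ZF-SGLT2i against ZF. A fit of only the groups compared called 3 proteasome genes in ZF against ZL (Psma4, Psmb6 and Psmd11). Rat numbers recur between groups, and nothing in the labels says what a number marks. The deviations of same-numbered rats from their group means correlated at −0.376 to 0.253, with the highest values for rat 4 of ZF and ZF-SGLT2i (0.253) and rat 4 of ZL and ZF (0.126), so the numbers were not taken as pairs throughout. A replicate block for the rat number called 2, 2 and 0 proteasome genes and 807, 223 and 1502 genes of all. In ZF against ZL the calls of Psma4, Psmb5, Psmb6, Psmd11 and Psme3 were lost with it (adjusted p from 0.076 to 0.17). The 2 proteasome genes were Psmb8 and Psmb9 in both comparisons, and the immunoproteasome median in ZF-SGLT2i against ZF was then −0.703. The planned count tests with edgeR and DESeq2 were not run. The cause of the shifts with weights, block and left-out rats was not tested. Psmb8, Psmb9 and Psmb10 had 53 to 207 reads per rat, which limits the precision of each value.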
